A study of Callithrix jacchus with 39 samples.

Results

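The ATP-binding cassette (ABC) genes of the common marmoset were followed through 39 RNA-seq libraries of embryos and embryonic stem cells (ESCs). Members were the rows whose marmoset symbol starts with ABC, followed by a subfamily letter from A to G and a number. This rule, which uses no measured value, found 37 of the 30811 genes in the deposited table, with 8 genes of subfamily A, 8 of B, 9 of C, 4 of D, 1 of E, 3 of F and 4 of G. ABCA2, ABCA8, ABCA10, ABCB1, ABCC9, ABCC12 and ABCG1 had no row under their symbols and are not analysed here. ABCB1 is a close paralog and genomic neighbour of ABCB4, and how reads shared between such copies were assigned is uncertain.

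ABC proteins use ATP hydrolysis, and most of them move lipids, sterols, metals, conjugated metabolites or drugs across a membrane. Members of subfamily D sit in peroxisomes and lysosomes, several of subfamily B sit in mitochondria, and those of subfamilies E and F have no membrane-spanning part and act on ribosomes. ABCB4, also called MDR3, turns phosphatidylcholine to the outer leaflet of the membrane and is best known from the bile canaliculus of the liver.

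The 13 groups had 3 libraries each. Embryos gave 7 groups: morula, inner cell mass (ICM, the cells inside the blastocyst that give rise to the embryo proper) at the early, blastocyst, expanded, hatching and hatched stages, and postimplantation epiblast. ESC groups were primed DSY127, primed No.40, primed DSY-c2 marked Tg, naive DSY-c2 marked TgON, primed N40 marked Tg and naive N40 marked TgOFF. What Tg stands for and how the cells were cultured is not given in the sources used here, nor is embryo age. Primed cells resemble the postimplantation epiblast and naive cells the blastocyst ICM, as general background. The labels name no separate cultures or embryos, so the spread behind each p-value is that of libraries and may be technical.

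Library totals were 38.8 to 78.7 M counts (M for 1e6) in ESCs and 45.3 to 59 M in embryos. Levels are counts per 1e6 counts of a library's total (CPM), given as mean ± SD (n = 3). Differences are log2 fold changes from edgeR, after a further scaling between libraries (TMM) that the CPM do not have. The test gives no SE. The SE shown is the size of the log2 fold change divided by the square root of the test's F statistic. It is approximate, and unreliable where a group has counts at or near 0. Small log2 fold changes can therefore depart from the ratio of the CPM shown. Comparisons with several ICM stages average the stages on the log2 scale, while the ICM CPM are means over libraries. Their log2 fold changes can depart further from the ratio of CPM. A gene was called where its p, adjusted by Benjamini-Hochberg over all genes tested, was under 0.05. Of the 37 members, 35 were tested in ESCs (not ABCA6 and ABCG8) and 33 in embryos (not ABCA6, ABCB11, ABCG5 and ABCG8), because the others had too few counts. The members that were tested are therefore not all members.

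The libraries carried their labels' marker genes with some exceptions. Summed CPM of 8 naive markers was 3040 to 4250 in naive and 278 to 1480 in primed cells, and that of 6 primed markers was 762 to 1510 in naive and 2920 to 4790 in primed cells. Hatched ICM replicate 1 stood apart, with 363 CPM of 4 pluripotency genes against 2340 and 2330 in the other two, and 5830 CPM of 9 primitive endoderm genes against 1750 and 2690. Its trophectoderm sum over 6 genes was 1280 CPM, against 280 and 551. The epiblast libraries held 1530 to 1730 CPM of 6 fibroblast genes, against 0 to 28.9 in ICM libraries, and 8540 to 9270 CPM of 4 hepatocyte genes, almost all of it TF and SERPINA1, with ALB at 0. In bulk RNA, fewer cells of a type and less RNA per cell cannot be told apart.

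ABC genes were spread widely over the groups. A total of 9 members averaged at least 10 CPM in every group. They included ABCE1, ABCF1, ABCF2 and ABCF3, which act on ribosomes, ABCB8 of mitochondria, ABCD3 of peroxisomes, ABCD4 of lysosomes, and ABCC5, an exporter of cyclic nucleotides. At the other end, ABCA6, ABCB11, ABCG5 and ABCG8 stayed under 1 CPM in every group. ABCB11 is the bile salt export pump, and ABCG5 and ABCG8 form the sterol exporter of liver and intestine. In the remaining members at least 1 group passed 1 CPM. The highest group mean lay in an ICM stage for 15 members, in the morula for 6, in the epiblast for 6, in primed cells for 4 and in naive cells for 6.

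**Figure D1:**
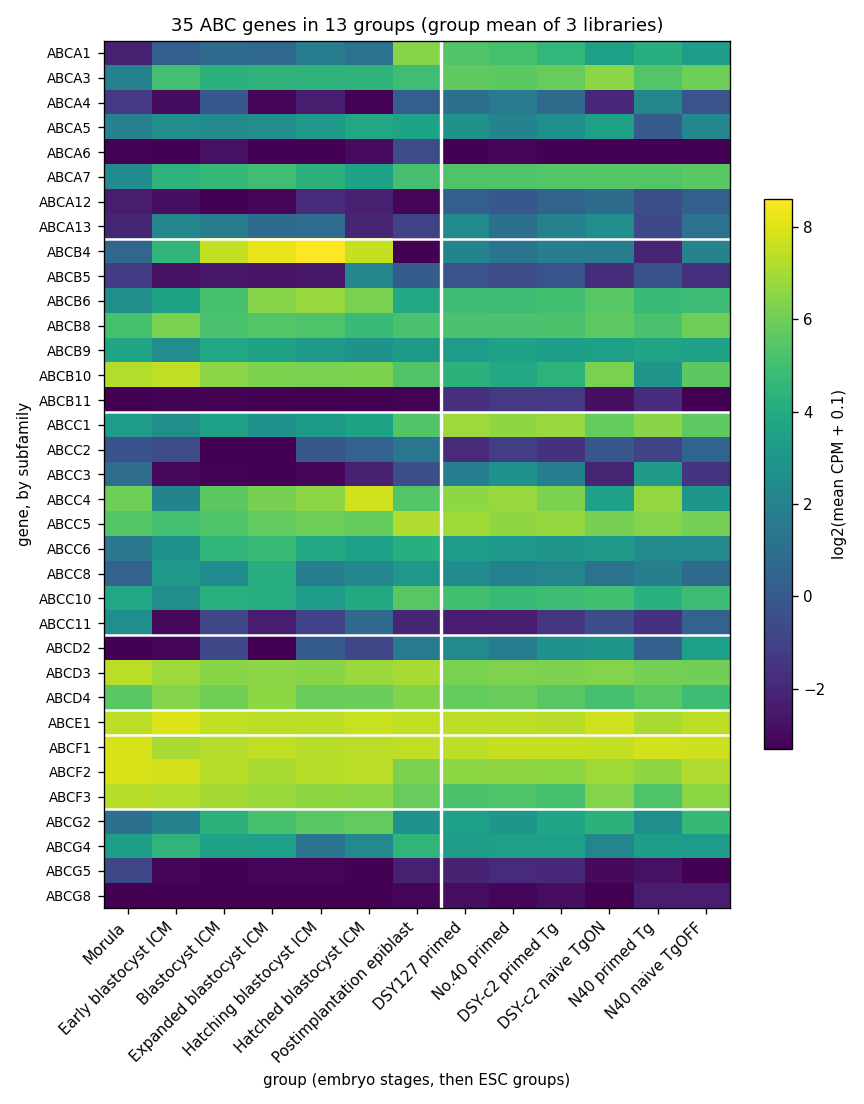
Group means of 35 of the 37 ABC genes (rows, by subfamily) in 13 groups (columns, embryo stages left of the vertical line), as log2(mean CPM + 0.1). Counts are not corrected for gene length, so colours compare groups along a row and not genes; ABCB4 spans the range from 0 in epiblast to 389 CPM in hatching ICM.

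ABCB4 (ENSCJAG00000014528) was low in the morula, high in the later blastocyst ICM and had no count in the epiblast. The 3 morula libraries held 0.153, 0.443 and 3.66 CPM, and the early ICM libraries 59.4, 0.599 and 7.42 CPM. Blastocyst ICM reached 61.6, 130 and 351 CPM. All 3 blastocyst values lay above the highest morula and early ICM libraries, whose own ranges overlapped.

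Expanded ICM held 342, 295 and 247 CPM, hatching ICM 705, 305 and 158 CPM, and hatched ICM 141, 206 and 220 CPM. Every expanded library was above every hatched one, while hatching ICM overlapped both. In the epiblast all 3 libraries were at 0 counts, where a count of 0 allows up to 0.0192 CPM (3 counts over the group). Such floors cover counting error alone and may be too low, because both mates of a pair appear to have been counted.

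Ordered by mean, ABCB4 stood at 389 ± 283 CPM in hatching, 295 ± 47.5 in expanded, 189 ± 42.1 in hatched, 181 ± 151 in blastocyst and 22.5 ± 32.1 CPM in early ICM. The ESC groups followed between 4.0 ± 1.52 CPM (DSY127) and 2.41 ± 2.49 CPM (No.40), then morula at 1.42 ± 1.95, N40 primed Tg at 0.139 ± 0.0949 and epiblast at 0 CPM. Neighbours in this order overlapped between libraries, except expanded over hatched, blastocyst over early, and N40 primed Tg over epiblast.

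**Figure D2:**
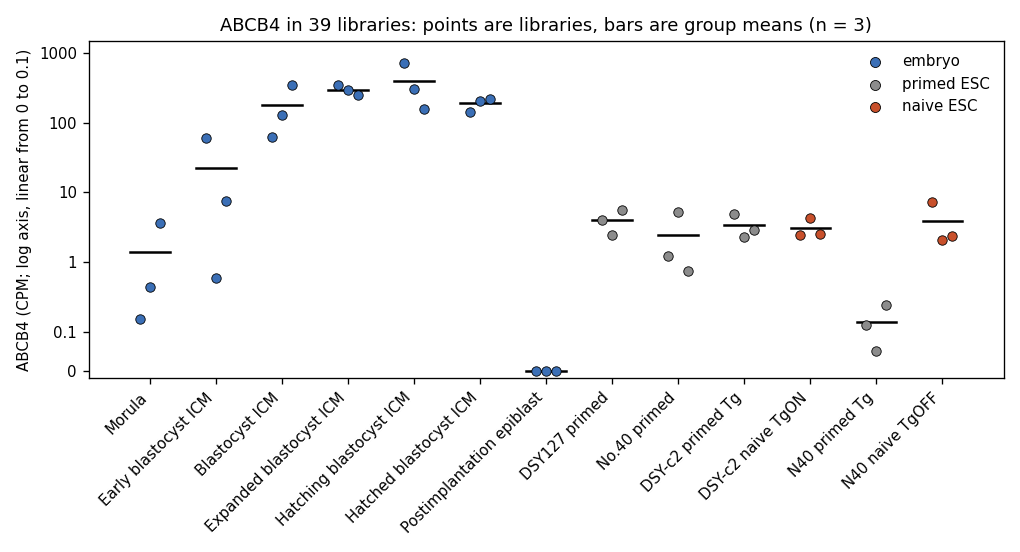
ABCB4 in CPM (log axis, linear from 0 to 0.1) in each of 39 libraries, with group means as bars and colours for embryo, primed and naive cells. The 12 libraries from blastocyst to hatched ICM lie between 61.6 and 705 CPM, the 3 epiblast libraries at 0, and the N40 primed Tg libraries between 0.0515 and 0.24, below all other ESC libraries.

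Against the morula, the mean of the 5 ICM stages was higher for ABCB4 by 6.71 ± 1.41 on the log2 scale (adjusted p = 0.00351), although early ICM replicate 2 lay within the morula range. Left-out libraries moved this difference between 6.16 and 9.02, and it stayed called. Among the ICM stages, the difference of hatching and hatched from early and blastocyst ICM was 2.02 ± 0.84 (adjusted p = 0.201, unadjusted p = 0.0289), and an F test over all 5 stages gave adjusted p = 0.361. Neither was called, whereas a fit in which all 39 libraries share one estimate of the spread called the late-minus-early difference (2.03, adjusted p = 0.0454). Leaving out early ICM replicate 1, the early library highest in ABCB4, brought the late-minus-early difference to 3.24, still not called.

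The epiblast was lower. The 15 ICM libraries held 215 ± 178 CPM of ABCB4 (lowest 0.599, median 206, highest 705). Their mean was 11200-fold the floor of 3 counts over the epiblast group, a floor that may be too low. The difference was called by edgeR (adjusted p = 8.75e-05). No left-out library ended the call.

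In ESCs, ABCB4 was lower than in any ICM stage from blastocyst to hatched, and the naive groups were no exception. DSY-c2 naive cells held 2.46, 4.33 and 2.57 CPM and DSY-c2 primed Tg cells 4.92, 2.28 and 2.87 CPM. These ranges overlapped, and the difference was 0.05 ± 0.65 (adjusted p = 0.95), with a sign that changed between settings. N40 naive cells held 7.39, 2.08 and 2.38 CPM and N40 primed Tg cells 0.127, 0.0515 and 0.24 CPM. Here the groups did not overlap, and the naive cells were higher by 4.90 ± 0.81 (adjusted p = 6.39e-05).

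The difference between the DSY-c2 and the N40 effects was -4.85 ± 1.02 (adjusted p = 0.00492). The naive groups were marked TgON in DSY-c2 and TgOFF in N40, so that line and Tg state cannot be told apart in this difference. Column endings went largely with the line as well, with 5 of 6 DSY-c2 libraries on the ending that no N40 library had. With the ending as a term the ABCB4 difference was -4.96 (adjusted p = 0.00672). The N40 primed Tg libraries were the low ones, and the other ESC groups averaged 2.41 to 4.0 CPM. Against No.40 primed cells, at 1.22, 5.28 and 0.741 CPM, N40 primed Tg cells were lower by 4.02 on the log2 scale (log2 fold change -4.02 ± 0.79, adjusted p = 0.00224), -2.64 without No.40 replicate 2, and -4.24 (adjusted p = 0.00293) without No.40 replicate 1, whose column ending differed. The N40 naive and No.40 primed libraries overlapped. These comparisons share the N40 primed Tg libraries and are not independent.

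The genes most like ABCB4 over the 13 group means, on log2(CPM + 0.1), were GCLM (Pearson r = 0.96), PRDX3 (0.945), AVIL (0.934), ZFAND2B (0.933) and ATP5F1C (0.93), out of 8861 genes with a symbol and at least 10 CPM in a group. These values describe 13 points that share the contrast of ICM with all other groups, and they do not measure the size of the changes. PRDX3 ran from 187 CPM in epiblast to 590 in hatching ICM, and ATP5F1C from 137 to 601 CPM. AVIL ran from 0.013 CPM in epiblast to 50.9 in blastocyst ICM. GCLM, a subunit of the enzyme that starts glutathione synthesis, went from 9.84 CPM in morula to 140 in hatching ICM and 6.69 in epiblast. Unlike ABCB4, it was higher in naive than in primed Tg cells of both lines, at 28.9 against 16.6 CPM in DSY-c2 and 30.3 against 15.0 in N40. Among the members, ABCG2 had the highest correlation with ABCB4 (0.581).

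In DSY-c2, 13 of 35 tested members were higher and 11 lower in naive than in primed Tg cells, against 29.6% and 29.3% of all 17957 genes. In N40, 14 were higher and 9 lower, against 32.3% and 28.7% of all genes. The members' shares were close to these backgrounds, so their number sets the family little apart from other genes. The median log2 fold change was 0.27 over members and 0.03 over all genes in DSY-c2, and 0.19 and 0.09 in N40. In both lines 19 members were called, 10 higher and 9 lower and 0 in opposite directions, which is 79.2% of the DSY-c2 calls and 82.6% of the N40 calls. The overlap over all genes was not counted, so these percentages have no background beside them. Several of these calls ended in some alternatives, as given below.

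The mitochondrial and ribosomal members were among those higher in naive cells. ABCB10, an inner-membrane protein of mitochondria that takes part in heme synthesis, stood at 23.2, 20.1 and 20.0 CPM in DSY-c2 primed Tg and 75.0, 72.3 and 73.6 CPM in naive cells. In N40 it went from 9.39, 6.80 and 5.99 CPM to 44.3, 52.7 and 49.3 CPM. Both pairs of groups were far apart for their spread, at 1.96 ± 0.17 (adjusted p = 9.12e-08) and 2.82 ± 0.18 (adjusted p = 2.15e-09).

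ABCF3, a ribosome-associated ATPase related to yeast Gcn20, went from 32.1, 40.9 and 33.4 CPM to 77.8, 91.9 and 83.1 CPM in DSY-c2, a difference of 1.40 ± 0.15 (adjusted p = 5.56e-07). In N40 it went from 34.8, 42.8 and 43.7 CPM to 96.8, 86.4 and 100 CPM, by 1.32 ± 0.14 (adjusted p = 8.51e-07). ABCF2 rose less, by 0.50 ± 0.12 and 0.63 ± 0.12, and its libraries overlapped in DSY-c2. ABCE1, which splits ribosomes for recycling, rose by 0.57 ± 0.10 in DSY-c2 and 0.39 ± 0.10 in N40, where its call ended without primed Tg replicate 1 (adjusted p = 0.059) or naive replicate 1 (adjusted p = 0.0955, at 0.21). ABCF1, the third F member, was at 171 to 225 CPM in the 12 libraries of these 4 groups and not called, with differences of 0.09 ± 0.07 and 0.02 ± 0.07.

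Other mitochondrial members moved less. ABCB8 rose by 0.56 ± 0.11 (adjusted p = 0.000285) in DSY-c2 and 0.89 ± 0.11 (adjusted p = 2.66e-06) in N40. ABCB6, a porphyrin transporter, rose in DSY-c2 from 31.9 ± 0.651 to 45.2 ± 3.59 CPM (0.66 ± 0.12, adjusted p = 0.000154) and was not called in N40 (0.22 ± 0.12, adjusted p = 0.123). The difference between these 2 effects was itself not called (adjusted p = 0.0817).

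Among the lipid and drug transporters, ABCG2, a broad exporter known from stem cell side populations, showed its larger difference in N40. Its primed Tg libraries held 6.91, 5.18 and 5.72 CPM and its naive ones 37.2, 19.7 and 20.0 CPM (2.21 ± 0.30, adjusted p = 7.73e-06). In DSY-c2 it went from 12.6, 14.5 and 12.0 to 20.2, 25.7 and 14.0 CPM, so the groups overlapped (0.76 ± 0.29, adjusted p = 0.0303). That call ended without primed Tg replicate 2 or 5 (adjusted p = 0.0846 and 0.0946) or naive replicate 1 or 2 (adjusted p = 0.0633 and 0.162).

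ABCA3, the lipid transporter of lung surfactant, rose from 56.0 ± 10.4 to 91.8 ± 14.4 CPM in DSY-c2 (0.88 ± 0.19, adjusted p = 0.001). In N40 its libraries overlapped and the difference was 0.66 ± 0.19 (adjusted p = 0.0074), lost without primed Tg replicate 2 (0.0788) or naive replicate 2 (0.0752). ABCA5 rose by 1.02 ± 0.36 in DSY-c2, to 10.9 ± 2.01 CPM, and by 2.30 ± 0.38 in N40, to 4.63 ± 1.03 CPM. The DSY-c2 call on ABCA5 ended without primed Tg replicate 5 (adjusted p = 0.0765) or naive replicate 3 (adjusted p = 0.0865). ABCC10, a drug exporter, was nearly level in DSY-c2 (29.7 ± 0.661 and 31.5 ± 0.553 CPM) and rose in N40 from 19.6 ± 0.775 to 29.1 ± 0.516 CPM (0.67 ± 0.09, adjusted p = 1.11e-05). Its DSY-c2 call (0.24 ± 0.09, adjusted p = 0.0351) ended without any 1 of the 6 libraries (adjusted p = 0.0785 to 0.128) and under DESeq2's size factors (adjusted p = 0.105). ABCC2 was called higher in both lines at no more than 1.38 CPM, and its calls ended without DSY-c2 primed Tg replicate 2 or 5 or naive replicate 2 or 3 (adjusted p = 0.0705 to 0.123), and without any 1 N40 library but primed Tg replicate 3 (adjusted p = 0.073 to 0.172).

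Subfamily C went both ways: ABCC1, ABCC3, ABCC4 and ABCC8 were called lower in naive cells of both lines, while ABCC2 and ABCC10 were called higher in both and ABCC11 in N40. The calls on ABCC2 and ABCC11, and the DSY-c2 calls on ABCC8 and ABCC10, ended with some single libraries left out. ABCC4, also called MRP4, which exports cyclic nucleotides and prostanoids, fell from 71.8, 79.1 and 74.8 CPM to 11.7, 16.1 and 5.69 CPM in DSY-c2 (-2.60 ± 0.30, adjusted p = 2.46e-06). In N40 it fell from 104, 110 and 88.3 CPM to 10.9, 5.62 and 6.62 CPM (-3.61 ± 0.31, adjusted p = 9.55e-08). The lowest primed library thus lay above the highest naive one by a wide margin in both lines.

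ABCC1, or MRP1, an exporter of glutathione conjugates, fell from 111, 113 and 104 CPM to 60.9, 47.4 and 58.3 CPM in DSY-c2 (-0.82 ± 0.13, adjusted p = 3.62e-05). In N40 it fell from 95.5, 79.9 and 88.8 CPM to 41.8, 54.1 and 51.5 CPM (-0.75 ± 0.13, adjusted p = 8.05e-05). ABCC3, an organic anion pump of the basolateral membrane, was low in primed cells, at 3.49 ± 0.439 and 8.78 ± 3.86 CPM, and near 0 in naive ones, at 0.136 ± 0.0997 and 0.256 ± 0.282 CPM. Its log2 fold changes were -4.54 ± 0.66 and -5.01 ± 0.64 (adjusted p = 2.23e-05 and 4.79e-06).

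Some members of subfamily A fell too. ABCA1, which loads cholesterol and phospholipid onto apolipoprotein A-I, fell from 25.4, 17.7 and 27.1 to 13.7, 12.5 and 6.68 CPM in DSY-c2 (-0.94 ± 0.25, adjusted p = 0.0038) and from 22.2, 13.7 and 18.3 to 11.7, 9.11 and 8.43 CPM in N40 (-0.80 ± 0.25, adjusted p = 0.0104). ABCA4, the retinal flippase of photoreceptors, fell by 3.23 in DSY-c2 and by 2.40 in N40 on the log2 scale, from 1.62 ± 0.602 and 4.14 ± 0.805 CPM. ABCD4, which takes part in lysosomal cobalamin export, fell from 46.0 ± 5.16 to 33.6 ± 3.86 CPM in DSY-c2 (-0.29 ± 0.11, adjusted p = 0.0308) and from 45.4 ± 2.08 to 30.2 ± 2.14 CPM in N40 (-0.49 ± 0.11, adjusted p = 0.00101). The DSY-c2 call on ABCD4 ended without primed Tg replicate 2 (0.0719), primed Tg replicate 5 (0.086) or naive replicate 2 (0.116).

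The remaining members lower in both lines were ABCC8, the sulfonylurea receptor, and ABCB5 and ABCB11, all under 5 CPM. ABCB11 had no count in N40 naive cells, and its primed level of 0.183 ± 0.177 CPM was 13.6-fold the floor of 3 counts over that naive group. In DSY-c2 the call on ABCB11 ended without primed Tg replicate 4 (-1.26, adjusted p = 0.333) or any naive replicate (adjusted p = 0.0579 to 0.108). That on ABCC8 ended without primed Tg replicate 2 (-0.50, adjusted p = 0.248), primed Tg replicate 5 (0.101) or any naive replicate (0.0529 to 0.15). In N40 the call on ABCB5 ended without primed Tg replicate 2 (adjusted p = 0.0521) or naive replicate 3 (adjusted p = 0.0679).

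Called in DSY-c2 but not in N40 were 5 members, among them ABCB6, ABCC5, ABCD3 and ABCG4. ABCC5 fell from 105 ± 2.49 to 70.4 ± 1.85 CPM (-0.43 ± 0.08, adjusted p = 0.000327), and ABCD3, a major peroxisomal membrane protein, rose from 76.4 ± 1.93 to 83.0 ± 2.64 CPM (0.28 ± 0.07, adjusted p = 0.00455, or 0.0515 with no filter on low counts). Called in N40 but not in DSY-c2 were ABCB4, ABCD2, ABCA13 and ABCC11. ABCA13 went from 0.525 ± 0.243 to 2.07 ± 0.451 CPM (2.07 ± 0.43, adjusted p = 0.000561). ABCC11 reached 1.23 ± 0.34 CPM (2.5 ± 0.82, adjusted p = 0.0146), a call lost without primed Tg replicate 2 (0.0682) or 3 (0.0624). Called in neither line were 7 members, among them ABCA7, ABCA12, ABCB9, ABCC6, ABCF1 and ABCG5.

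**Figure D3:**
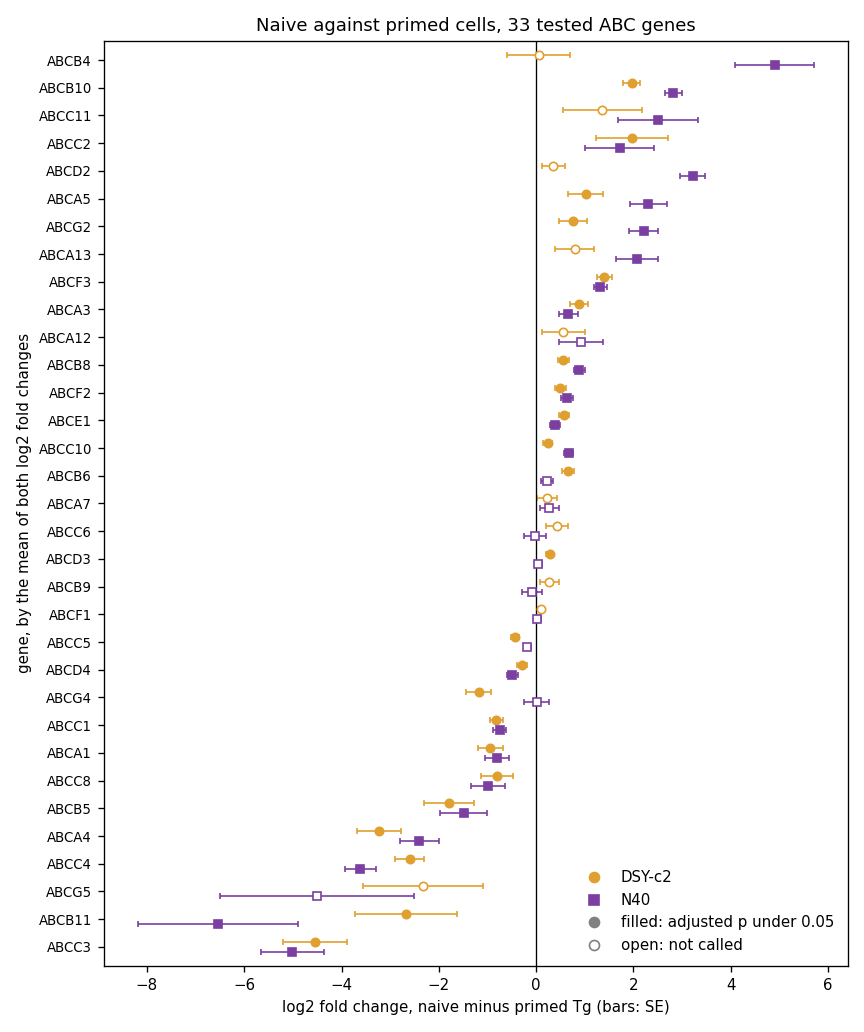
Log2 fold change of naive minus primed Tg cells with SE for 33 of the 35 tested ABC genes, DSY-c2 as circles and N40 as squares, filled where called. The 2 lines lie side by side for ABCF3 (1.40 and 1.32) and ABCC1 (-0.82 and -0.75), and apart for ABCB4 (0.05 and 4.90) and ABCD2 (0.35 and 3.22).

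The test of the difference between the DSY-c2 and N40 effects called 6 of 35 members, all more positive in N40 (8.57% of all genes in that direction and 6.55% in the other), and 5 with the column ending as a term. As for ABCB4, line and Tg state cannot be told apart here. A total of 12 members had an unadjusted p under 0.05, but the share of all genes at that level was not counted. ABCD2, which carries very long-chain fatty acyl-CoA into peroxisomes, was at 7.13, 7.41 and 5.17 CPM in DSY-c2 primed Tg and 8.47, 6.36 and 7.72 CPM in naive cells. In N40 it went from 1.65, 0.772 and 1.23 to 9.24, 11.1 and 11.4 CPM. The difference of effects was -2.87 ± 0.34 (adjusted p = 1e-04), and here too the N40 primed Tg libraries were the low ones.

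The other members called in this test were ABCG2 (-1.44), ABCG4 (-1.19), ABCB10 (-0.86) and ABCC10 (-0.43). ABCG4, a sterol transporter, fell in DSY-c2 from 11.9, 8.46 and 12.1 to 5.36, 3.07 and 4.41 CPM (-1.18 ± 0.26, adjusted p = 0.00103) and was level in N40 (0.01 ± 0.26). The call on the ABCC10 difference ended without any 1 of the 12 libraries (adjusted p = 0.0599 to 0.142). That on ABCG4 ended without any but DSY-c2 primed Tg replicate 4, DSY-c2 naive replicate 1 and N40 primed Tg replicate 1 (0.0652 to 0.119). That on ABCB10 ended without DSY-c2 primed Tg replicate 2, any DSY-c2 naive replicate, N40 primed Tg replicate 2 or 3 or N40 naive replicate 2 (0.0523 to 0.0786). That on ABCG2 ended without DSY-c2 primed Tg replicate 4, DSY-c2 naive replicate 1 or 3, N40 primed Tg replicate 2 or 3 or N40 naive replicate 1 (0.0505 to 0.0794). The differences in ABCB4 and ABCD2 were called with each library left out.

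Markers of other cells also moved with these comparisons, and the genes of 1 list often went different ways. The sum of 6 fibroblast genes was 350 to 432 CPM in DSY-c2 primed Tg against 70.6 to 200 in naive cells, and 607 to 869 against 190 to 470 CPM in N40. COL1A1 made most of it, averaging 229 and 90.6 CPM in DSY-c2 and 616 and 165 CPM in N40, and PDGFRB was lower too. COL3A1 went the other way, from 3.42 to 30.7 CPM in DSY-c2 and from 0.35 to 73.5 CPM in N40, as did COL1A2 in N40 (10.6 and 42.5 CPM).

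The sum of 9 primitive endoderm genes was 872 to 2110 against 370 to 583 CPM in DSY-c2 and 1150 to 1260 against 184 to 255 CPM in N40, most of it COL4A1 in primed cells (1110 and 1180 CPM, against 308 and 73 in naive cells). Regulators of that lineage were higher in naive cells: HNF4A averaged 16.5 and 143 CPM in DSY-c2 and 0.178 and 63.2 CPM in N40, and GATA4 8.06 and 17.5 CPM and 3.62 and 21.6 CPM. GATA6 and PDGFRA were higher in naive cells of N40 (23.7 and 26.4 CPM, against 0.0599 and 10.5) and lower in those of DSY-c2 (8.88 and 9.14 CPM, against 62.1 and 100).

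The sum of 5 blood and endothelium genes, mostly PECAM1, was 158 to 340 CPM in DSY-c2 primed Tg against 972 to 1100 in naive cells, and 166 to 234 against 1260 to 1320 CPM in N40, with PTPRC at or near 0 throughout. The sum of 4 hepatocyte genes, nearly all TF, was 477 to 549 CPM in primed Tg against 76 to 113 in naive DSY-c2 cells and 647 to 801 against 113 to 143 CPM in N40, with ALB at or near 0 throughout. The 6 trophectoderm genes summed to 14.2 to 18.2 CPM in N40 primed Tg and 49.5 to 88.4 CPM in N40 naive cells, and overlapped in DSY-c2 (106 to 139 and 32.5 to 218 CPM). Their part in the ABC results was not tested. Column endings of the table differed within DSY-c2, where naive replicate 3 alone had the other ending. With the ending as a term, an alternative chosen after seeing the data, 22 members were called in DSY-c2, and without that replicate ABCB10, ABCF3, ABCC4 and ABCC1 were called as before.

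The primed Tg groups were also compared with the primed lines not marked Tg. Between DSY-c2 primed Tg cells and DSY127, 0 tested members were called, against 0.156% of all genes higher and 1.72% lower. DESeq2 called 0 as well. An unadjusted p under 0.05 was found for 3 members, and the share of all genes at that level was not counted. Among them ABCA1 was at -0.78 ± 0.25 (adjusted p = 0.175 by edgeR), close in size to its called difference of N40 primed Tg from No.40 (-0.87 ± 0.25). Without DSY127 replicate 2 the call was 1 member, ABCC11, whose counts in DSY127 were all in that replicate. All DSY-c2 primed Tg libraries had another column ending than all DSY127 libraries, and with the ending as a term 0 members were called.

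N40 primed Tg cells had 1 member higher than No.40 and 7 lower, against 8.3% and 13.6% of all genes. ABCF1, a factor of translation initiation, was the higher one, at 219 ± 8.18 against 186 ± 9.09 CPM (0.30 ± 0.07, adjusted p = 0.00835). Lower beside ABCB4 were ABCA5 (1.17, 1.34 and 0.507 against 6.23, 3.79 and 2.17 CPM, -1.95 ± 0.38), ABCA13 (-1.88 ± 0.43), ABCD2 (-1.32 ± 0.25), ABCB10 (-0.91 ± 0.17), ABCA1 (-0.87 ± 0.25) and ABCC10 (-0.35 ± 0.09). The libraries of ABCA13 overlapped. In a fit of the compared groups alone, the calls on ABCA13 (adjusted p = 0.0875), ABCD2 (0.0536), ABCB10 (0.0562), ABCF1 (0.0565) and ABCC10 (0.153) ended. The call on ABCA1 ended without No.40 replicate 1 (adjusted p = 0.103) or 2 (0.0844) or N40 primed Tg replicate 2 (0.105) or 3 (0.0575). That on ABCC10 ended without No.40 replicate 1 (-0.20, adjusted p = 0.202) or 3 (-0.23, adjusted p = 0.123) or N40 primed Tg replicate 1 (0.0578) or 3 (0.0782). The N40 primed Tg libraries were also the primed side of the naive comparison in N40.

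From the morula to the ICM, 3 of 33 tested members were higher and 2 lower, against 8.65% and 12.2% of all 16929 genes. Without hatched ICM replicate 1 it was 3 higher and 3 lower. Beside ABCB4, ABCA3 was higher, at 4.90, 2.68 and 3.59 CPM in the morula and 23.4 ± 11.4 CPM over 15 ICM libraries (lowest 9.39, median 23.1, highest 57.0). No ICM library overlapped the morula for ABCA3 (2.64 ± 0.50, adjusted p = 0.00128). ABCA7, a relative of ABCA1 in phospholipid handling, was at 5.63, 4.17 and 6.33 CPM in the morula and at 7.96 to 49.5 CPM in ICM (1.93 ± 0.40, adjusted p = 0.00249).

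ABCC3 and ABCC11 were lower in ICM, both with libraries that overlapped. ABCC3 stood at 0.191, 0.665 and 4.54 CPM in the morula and at most 0.283 CPM in ICM (-6.93 ± 1.38, adjusted p = 0.00247). ABCC11 stood at 1.54, 0.185 and 16.4 CPM in the morula and at most 2.46 CPM in ICM (-4.74 ± 1.10, adjusted p = 0.00544), a call that ended without morula replicate 3 (-1.85, adjusted p = 0.39). DESeq2 called 10 members in this comparison, ABCB6, ABCG2, ABCC6, ABCC8 and ABCC2 in addition. The share of all genes that DESeq2 called was not counted. ABCB6 was at 1.87, 15.3 and 0.356 CPM in the morula and 42.8 CPM at the ICM median (3.06 ± 1.18, adjusted p = 0.0761 by edgeR). ABCG2 was at 2.69, 2.99 and 0.186 CPM in the morula and 29.5 CPM at the ICM median (3.58 ± 1.32, adjusted p = 0.0632).

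Within the ICM series, ABCC4 was the member called between early and late stages, against 1.26% of all genes higher and 0.774% lower. Early ICM held 11.6, 0.29 and 0.193 CPM and blastocyst ICM 22.1, 72.8 and 50.2 CPM, while hatching ICM held 173, 34.3 and 67.8 CPM and hatched ICM 244, 263 and 129 CPM. The hatched libraries were above all early, blastocyst and expanded ones, whereas hatching overlapped blastocyst ICM. The difference was 3.23 ± 0.75 (adjusted p = 0.0344). It ended without early replicate 3, blastocyst replicate 1 or 2, hatching replicate 1 or 3, or hatched replicate 1 or 2 (adjusted p = 0.0505 to 0.0886), and it was 5.23 without early replicate 1. Without hatched replicate 1, the library with low pluripotency markers, it was 3.16 (adjusted p = 0.0645).

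A total of 11 members had an unadjusted p under 0.05 in that comparison. Higher in late ICM among them were ABCG2 (2.41 ± 0.97, adjusted p = 0.18) and ABCB6 (2.05 ± 0.89, adjusted p = 0.212), and lower were ABCG4 (-2.31 ± 0.61, adjusted p = 0.0555) and ABCF3 (-0.60 ± 0.20, adjusted p = 0.12). DESeq2 called ABCC4, ABCG2, ABCG4 and ABCC2. The edgeR F test over the 5 ICM stages called 0 of 33 members, against 0.295% of all genes, with 5 at an unadjusted p under 0.05 and 4 called by DESeq2 (ABCC4, ABCG4, ABCB5 and ABCB8). The shares of all genes with such an unadjusted p, or called by DESeq2, were not counted in either comparison. ABCB5 was at most 0.222 CPM in ICM before hatching completed and at 7.92, 1.41 and 3.66 CPM in hatched ICM, highest in replicate 1.

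**Figure D4:**
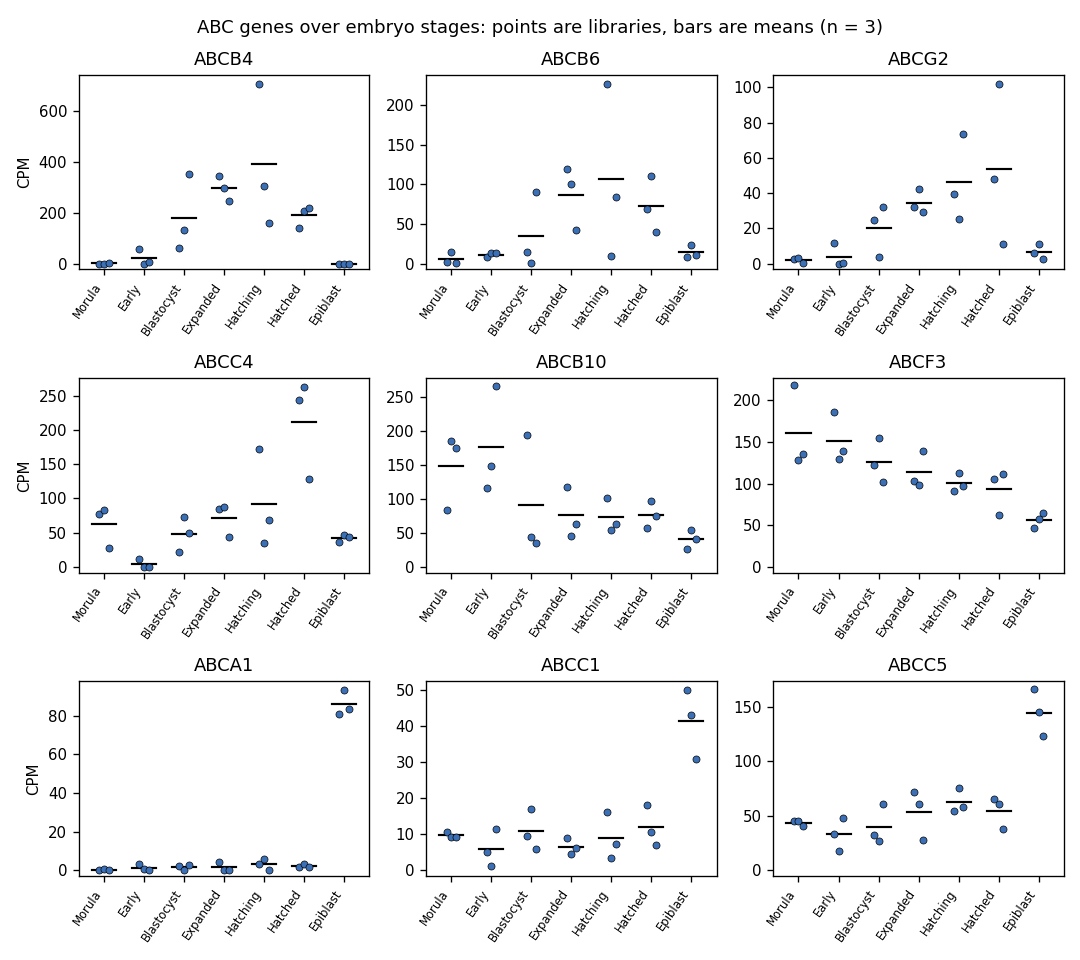
CPM of 9 ABC genes in each embryo library over 7 stages, with stage means as bars (n = 3, linear axes). ABCB4 runs from 0.153 to 705 CPM before it reaches 0 in epiblast, ABCC4 is highest in hatched ICM (129 to 263 CPM), and ABCA1 is at 81.0 to 93.3 CPM in epiblast against at most 5.98 in ICM.

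From ICM to epiblast, 9 of 33 members were higher and 4 lower, against 26.1% and 18.7% of all genes, and the median was 0.17 over members and 0.20 over all genes. Without hatched ICM replicate 1 it was 9 higher and 3 lower. ABCA1 rose most, from 1.91 ± 1.87 CPM over the ICM libraries (lowest 0, median 1.73, highest 5.98) to 81.0, 93.3 and 83.5 CPM (5.49 ± 1.23, adjusted p = 0.00168). No library overlapped. DESeq2 gave ABCA1 a difference of 5.74 with no adjusted p.

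The exporters ABCC1, ABCC5 and ABCC10 also rose. ABCC1 went from 8.76 ± 5.08 to 41.2 ± 9.72 CPM (2.18 ± 0.49, adjusted p = 0.00161), ABCC5 from 48.6 ± 18.2 to 145 ± 21.3 CPM (1.51 ± 0.28, adjusted p = 0.000367) and ABCC10 from 13.3 ± 8.19 to 44.8 ± 6.58 CPM (1.78 ± 0.43, adjusted p = 0.00306). None of these 3 genes overlapped between epiblast and ICM, and no left-out library ended their calls.

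Calls on 4 low members ended when 1 epiblast library was left out. Over the 15 ICM libraries the median of each was 0 CPM. Their ICM means were 0.53 CPM for ABCC2, 0.0297 for ABCC3, 0.405 for ABCD2 and 0.206 for ABCA4. With ICM stages at or near 0 counts, the size of these log2 fold changes is uncertain. In epiblast replicates 1 to 3, ABCC2 held 1.22, 6.24 and 0.0189 CPM, ABCC3 0.0383, 1.84 and 0 CPM, and ABCD2 0, 8.66 and 0.227 CPM. Without replicate 2 their differences went from 4.87, 5.26 and 4.81 to 2.95 (adjusted p = 0.229), 0.48 (adjusted p = 0.698) and 0.22 (adjusted p = 0.81). ABCA4 held 2.14, 0.528 and 0.681 CPM, and its difference went from 4.37 to 3.56 without replicate 1 (adjusted p = 0.139).

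Lower in epiblast beside ABCB4 were 3 members that were higher in naive than in primed cells. ABCF2 went from 169 ± 39.9 CPM in ICM to 69.0, 70.1 and 86.6 CPM (-1.26 ± 0.23, adjusted p = 0.000354), with no overlap, and ABCF3 from 117 ± 29.6 CPM to 46.9, 57.8 and 65.1 CPM (-1.13 ± 0.24, adjusted p = 0.00111), with an overlap from 1 hatched library at 62.2 CPM. ABCB10 went from 98.8 ± 63.7 CPM to 26.5, 54.4 and 40.6 CPM (-1.30 ± 0.48, adjusted p = 0.0346). The ABCB10 call ended without early replicate 2, hatching replicate 2 or 3, hatched replicate 1 or 3 or any 1 epiblast library (adjusted p = 0.0504 to 0.188), and under DESeq2's size factors (-1.05, adjusted p = 0.0726).

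ABCG2 and ABCB6 were lower in epiblast by -1.89 ± 1.17 and -1.86 ± 1.08, which was not called (adjusted p = 0.199 and 0.174). Not called either were ABCE1 (-0.20 ± 0.28), ABCF1 (0.04 ± 0.26), ABCD3 (0.32 ± 0.37) and ABCC4 (-0.31 ± 0.78). The fibroblast and hepatocyte genes named above were high in the same epiblast libraries. The sum of the 5 blood and endothelium genes, at 321 to 344 CPM, lay within the ICM range of 113 to 507. Among them PTPRC and TEK averaged 8.12 and 55.7 CPM in epiblast against at most 0.0756 and 10.9 CPM in an ICM stage, CDH5 averaged 0.0128 CPM against 0.965 to 21.3, and PECAM1 266 CPM against 216 to 334. Their part in the epiblast values was not tested.

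**Figure D5:**
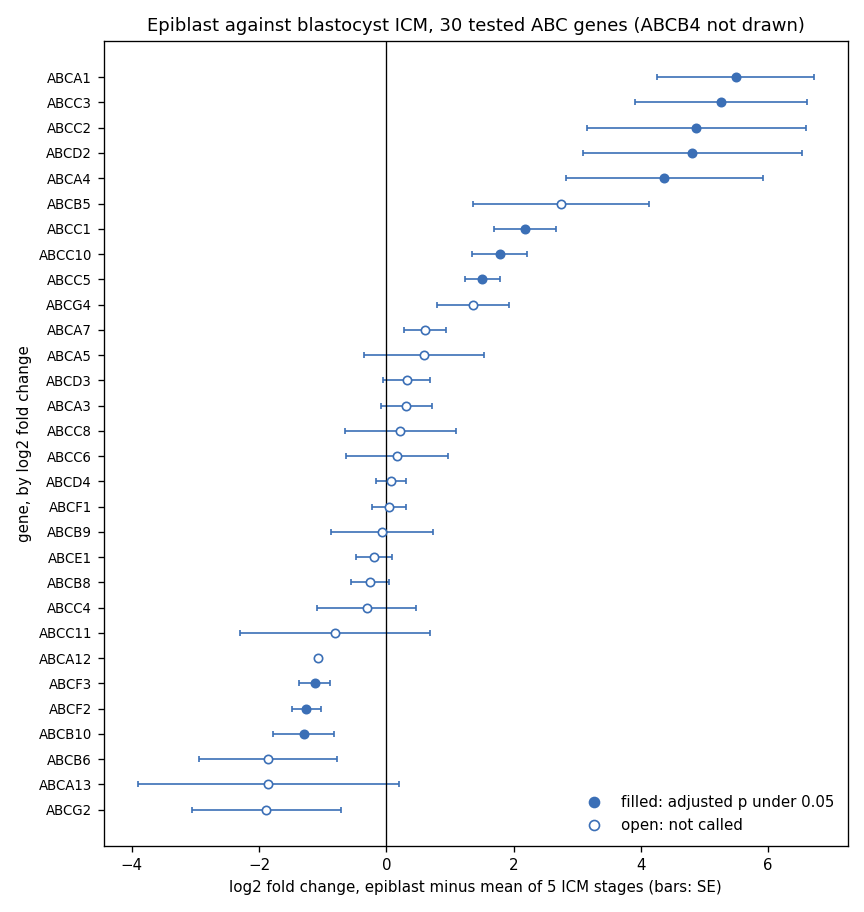
Log2 fold change of epiblast minus the mean of 5 ICM stages with SE for 30 of the 33 tested ABC genes, filled where called. ABCB4 (no count in epiblast) is not drawn and ABCA12, with an SE of 14.39, is drawn without its bar; ABCA1 (5.49) is at the top and the called falls are ABCF3, ABCF2 and ABCB10 (-1.13 to -1.30).

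Partner genes of the members were counted over lists. Of all genes, 29.6% were higher and 29.3% lower in DSY-c2 naive cells (median 0.03), 32.3% and 28.7% in N40 (median 0.09), and 26.1% and 18.7% in epiblast against ICM (median 0.20). Of 10 tested genes of heme and iron-sulfur cluster synthesis, which work with the mitochondrial ABCB proteins, 6 were higher and 1 lower in DSY-c2 naive cells (median 0.39) and 4 higher and 2 lower in N40 (median 0.26). The N40 counts were near the shares of all genes. UROD, an enzyme of heme synthesis, rose by 0.95 ± 0.10 and 0.77 ± 0.10, and FECH, which inserts the iron, fell (-1.08 ± 0.20 and -1.23 ± 0.20). In epiblast against ICM 0 of these genes were higher and 6 lower (median -0.79), beside 26.1% and 18.7% of all genes.

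Translation and ribosome recycling, the setting of ABCE1 and the F members, had 6 of 9 genes higher and 1 lower in each line (medians 0.33 and 0.30), beside 29.6% and 29.3% of all genes in DSY-c2 and 32.3% and 28.7% in N40, with EIF2S1 at 0.61 ± 0.07 and 0.64 ± 0.07. The lower one was EIF2AK4, the kinase GCN2 (-0.73 ± 0.10 and -0.96 ± 0.10). In epiblast against ICM 1 was higher and 6 lower (median -1.21), beside 26.1% and 18.7% of all genes, led by EIF2S1 (-2.44 ± 0.21).

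Of 11 peroxisomal genes, 5 were higher and 1 lower in DSY-c2 and 6 higher and 0 lower in N40 (medians 0.28 and 0.62, against 0.03 and 0.09 over all genes), where the shares of all genes were 29.6% and 29.3% and 32.3% and 28.7%. ACAA1, a thiolase of peroxisomes, rose by 0.95 ± 0.14 and 0.67 ± 0.14. Among 7 sterol genes, 4 were higher and 2 lower in DSY-c2 and 3 higher and 2 lower in N40 (medians 0.71 and 0.13), which in so short a list is not far from those shares. SCARB1, the receptor for high-density lipoprotein, fell in both lines (-1.28 ± 0.27 and -1.55 ± 0.28). In epiblast against ICM 3 sterol genes were higher and 1 lower (26.1% and 18.7% of all genes).

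Among 16 nuclear receptors and transcription factors known to regulate ABC genes, 7 were higher and 4 lower in DSY-c2 (median 0.19) and 7 higher and 5 lower in N40 (median 0.35). These counts were not far from the 29.6% and 29.3% of all genes in DSY-c2 and 32.3% and 28.7% in N40. NR1I2, the xenobiotic receptor PXR, fell in both lines (-3.62 ± 0.32 and -3.82 ± 0.32), as did NR1H4, the bile acid receptor FXR (-8.31 ± 1.44 and -4.05 ± 0.87). HNF4A rose in both (3.25 ± 1.07 and 8.56 ± 1.5). In epiblast against ICM, 2 were higher, NR1I2 among them (6.02 ± 1.45), and 5 lower, beside 26.1% and 18.7% of all genes.

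Of 9 tested genes of bile acid and canalicular lipid handling, the liver setting of ABCB4 and ABCB11, 2 were higher and 4 lower in DSY-c2 (median -0.84) and 2 higher and 1 lower in N40 (median 0.44), beside 29.6% and 29.3% of all genes in DSY-c2 and 32.3% and 28.7% in N40. TMEM30A, a subunit of phospholipid flippases, rose in both lines (0.39 ± 0.11 and 0.57 ± 0.11), and CYP27A1, a sterol hydroxylase of bile acid synthesis, fell in both (-2.85 ± 0.39 and -2.13 ± 0.38). Of 8 glutathione genes, whose products feed the ABCC exporters, 3 were higher and 1 lower in DSY-c2 (median 0.58) and 3 higher and 3 lower in N40 (median 0.20), near the same shares in N40. MGST3 rose by 2.61 ± 0.15 and 1.27 ± 0.14, and SLC7A11, the cystine importer, fell (-2.63 ± 0.54 and -1.87 ± 0.52). The KATP channel pores that pair with ABCC8 had no row.

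TAP1, TAP2 and CFTR belong to the ABC superfamily but carry other symbols. TAP1, a subunit of the peptide transporter of antigen presentation, fell in DSY-c2 from 53.2, 29.4 and 42.9 CPM in primed Tg to 6.99, 3.26 and 5.72 CPM in naive cells (-2.81 ± 0.44, adjusted p = 5.08e-05). In N40 it rose from 3.73, 0.798 and 1.41 CPM to 6.18, 9.53 and 12.8 CPM (2.36 ± 0.44, adjusted p = 0.000227). The groups did not overlap in either line, and the directions were opposite. TAP2, its partner, did the same (-2.19 ± 0.23 and 1.76 ± 0.23).

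CFTR, a chloride channel, was not called in DSY-c2, with 4.41, 16.7 and 2.93 CPM in primed Tg and 6.91, 4.45 and 2.33 CPM in naive cells, and rose in N40 from 0.343, 0.129 and 0.187 to 6.83, 2.30 and 2.41 CPM (4.22 ± 1.15, adjusted p = 0.00509). Of 7 tested genes that load antigen peptides beside TAP, 1 was higher and 3 lower in DSY-c2 and 1 higher and 5 lower in N40 (medians -0.21 and -0.66), beside 29.6% and 29.3% of all genes in DSY-c2 and 32.3% and 28.7% in N40. TAPBP, which tethers the class I molecule to TAP, was the higher one (2.01 ± 0.29 and 2.89 ± 0.30), and B2M, the light chain of class I, fell in both lines (-0.65 ± 0.16 and -0.88 ± 0.16).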

How the data were processed

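Poly(A)+ RNA was made into stranded libraries, per the labels' protocols. The submitters' processing notes name Trim Galore 0.4.0, STAR 2.5.3a and featureCounts 1.5.2. Which build, annotation and strand setting they used was not given in the sources used here. Raw counts were deposited by the authors in 2 columns per library. These were summed, since chi-square per gene was 1.91 to 2 between them and at least 28.1 between libraries of a group. Another 6 columns belonged to no sample and were not used. Of counts from 1 to 49, 65% were even, as when both mates of a pair are counted. The reference table gave symbols to 12660 IDs (41.1%).

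ESC and embryo counts were tested in separate fits with edgeR 4.0.16 in R 4.3.3 (quasi-likelihood, filterByExpr, TMM, robust), after the script was tested on simulated data. Alternatives were DESeq2 1.42.0 as a test and as scaling, 2 other filters, halved counts, a replicate block, the column ending as a term, all 39 libraries or the compared groups in 1 fit, and leaving out each library. Replicate numbers did not pair the samples.

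The members and lists were chosen with earlier results of these data known. A member was named with values if it was called, its libraries did not overlap and the higher group had at least 1 CPM, up to 10 each way, and ABCB4 was named in every group. Other members named with values were chosen after their values were seen. Results on some genes are not reported here.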

Additional observations from a re-analysis of the deposited data

Results flagged for a closer look

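The following differences between the naive effect in DSY-c2 and that in N40 passed the test of the difference itself (edgeR, Benjamini-Hochberg adjusted over all genes). The naive cells were TgON in DSY-c2 and TgOFF in N40, and line and Tg state cannot be told apart. Among the members they were ABCB4 (-4.85 ± 1.02, adjusted p = 0.00492), ABCD2 (-2.87 ± 0.34, adjusted p = 1e-04), ABCG2 (-1.44), ABCG4 (-1.19), ABCB10 (-0.86) and ABCC10 (-0.43). Among the ABC genes with other symbols they were TAP1 (-5.18 ± 0.62, adjusted p = 0.000116), TAP2 (-3.95 ± 0.32, adjusted p = 3.03e-06) and CFTR (-4.90 ± 1.48, adjusted p = 0.0378). For ABCB4, ABCD2, TAP2 and CFTR the N40 primed Tg libraries were lower than those of every other ESC group. ABCG2, ABCG4, ABCB10 and ABCC10 lost their calls with several single libraries left out.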

How the results depend on the processing

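Counts of called members moved most when all 39 libraries shared one fit: 3 in place of 24 in DSY-c2, 6 in place of 23 in N40, 0 in place of 6 for the difference of effects, 0 in place of 8 for N40 primed Tg against No.40, 17 in place of 5 for ICM against morula, 8 in place of 1 for late against early ICM and 12 in place of 0 for the F test. The shares of all genes called under this and the other alternatives were not counted. In the fit of all 39 libraries, ESC and embryo libraries share one estimate of the spread. For ABCB4 it gave -4.80 (adjusted p = 0.481) for the difference of effects, -3.89 (0.109) against No.40 and 2.03 (0.0454) for late against early ICM.

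DESeq2 called 10 for ICM against morula, 4 for late against early ICM and 4 in the F test. The compared groups alone gave 3 against No.40 and 0 for late against early ICM. Replicate numbers did not pair the samples (among groups that share 3 numbers, none had every pair's correlation over 0.1). With the replicate block, 15 members were called in DSY-c2, whose primed and naive groups share 1 number, and 3 for the difference of effects.

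The sign of ABCB4 in DSY-c2 (0.05) changed with DESeq2's size factors (-0.01), no filter (-0.02), the replicate block (-0.39), the column ending (-0.06), DESeq2 (-0.01) and all libraries (-0.05), and lay between -0.27 and 0.40 with libraries left out. For ABCB4 against DSY127 (-0.24) the replicate block gave 0.15, the column ending 0.19, and left-out libraries -0.56 to 0.14. It was called in none of these.

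With a library left out, the counts ran from 2 to 5 for the difference of effects, 0 to 1 against DSY127, 0 to 3 for late against early ICM and 0 to 1 for the F test. The other counts, and ABCB4 in the remaining comparisons, stayed within 1.5 times their value or on their side of the threshold. With all counts halved and rounded, since both mates of a pair appear to have been counted, 9 in place of 8 members were called against No.40 and the other counts of calls were the same.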
